A study of Homo sapiens with 6 samples.

Results

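The 3p21.31 neighbourhood is a gene-dense stretch of the short arm of human chromosome 3, running in gene order from CSPG5 to DCAF1. Its members were 56 named neighbours, of which 52 had at least 1 array feature carrying their symbol alone, out of 12562 genes named on the array. They had 61 features in all, and for the 6 members with several features the feature with the highest mean over all 6 arrays stood for the gene. TREX1, DAG1, HYAL1 and TUSC2 are members that were not analysed here. The neighbourhood was chosen by the measured differences between FOXC2 and pBabe cells of genes adjacent on this stretch, so those differences, and the counts and p-values built on them, are given as a description and support nothing further.

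The arrays compared SW480, an established human colorectal adenocarcinoma line, transduced with a retroviral construct for the forkhead transcription factor FOXC2, with the same line given pBabe, the vector without insert. Cells of both groups went through 3 to 5 days of puromycin (0.5 μg/mL) in medium with 10% serum and were taken at about 90% confluence, from 3 separate cultures a group. Each culture had its own single-colour NimbleGen array. Since the labels name no separate transductions and no promoter, the errors are those of cultures and not of independently made populations.

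This part of 3p carries genes for unrelated basic tasks of the cell: splicing factors, tRNA enzymes, ubiquitin ligases, mitochondrial proteins and signalling proteins lie side by side. It is best known in cancer biology for a cluster that includes HYAL2, TUSC2, RASSF1, NPRL2, CYB561D2 and TMEM115. That cluster was found in a region often deleted in lung and other tumours and was studied as a source of tumour suppressors. Neighbouring genes can share a start region, a chromatin domain or a copy number, and an expression array reads the transcripts of such genes separately.

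Several members lie head to head, with start sites so close that both read out of the same stretch of DNA. The stretches between an annotated start of each gene are shown because they join neighbours whose values are set side by side further on. They are RefSeq sequence of GRCh38.p14, plus strand, with each CpG in capitals, at chr3:48440120-48440256, chr3:49021506-49021649, chr3:49689475-49689556, chr3:50350776-50350861 and chr3:50611775-50611876.
CCDC51/TMA7: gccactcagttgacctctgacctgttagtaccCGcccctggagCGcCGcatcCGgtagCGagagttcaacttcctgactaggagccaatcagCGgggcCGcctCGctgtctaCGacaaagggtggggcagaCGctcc
DALRD3/NDUFAF3: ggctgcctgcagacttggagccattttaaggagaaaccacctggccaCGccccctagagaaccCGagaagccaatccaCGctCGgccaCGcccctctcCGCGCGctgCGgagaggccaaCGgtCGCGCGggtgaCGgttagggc
MST1/RNF123: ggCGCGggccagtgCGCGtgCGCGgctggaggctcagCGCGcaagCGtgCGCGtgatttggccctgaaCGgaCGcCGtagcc
NPRL2/CYB561D2: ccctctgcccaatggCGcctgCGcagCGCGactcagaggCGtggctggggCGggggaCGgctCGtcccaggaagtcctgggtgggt
CISH/MAPKAPK3: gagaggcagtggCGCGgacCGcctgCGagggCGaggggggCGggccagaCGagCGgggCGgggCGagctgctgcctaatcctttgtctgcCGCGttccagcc

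FOXC2 itself gave 8777, 8262 and 8344 with the construct and 2319, 2323 and 2818 without it, so the groups did not overlap and the labels fit. The values are intensities that the authors normalized with RMA, on a linear scale, and array medians lay between 895 and 913. Of 8 markers of colorectal epithelium 7 were analysed, with summed intensities of 72950 to 77310 on the FOXC2 arrays and 67560 to 72700 on the pBabe arrays. The keratins KRT8 and KRT18 were bright in both groups, at mean log2 intensities of 14.97 and 14.47 in FOXC2 cells and 15.11 and 14.77 in pBabe cells, while CDH17 was dim in both. EPCAM (2.35), KRT19 (1.06), CDX2 (1.19) and VIL1 (3.11) were higher in FOXC2 cells in log2 fold change, and KRT18 (-0.30) was lower. Of 5 fibroblast markers 3 were analysed, summing to 744.2 to 931.9 in FOXC2 cells and 3090 to 3773 in pBabe cells. COL1A1 (-2.22) and PDGFRB (-2.37) were lower and COL3A1 (0.37) did not pass. Of 3 leukocyte markers CD3D alone was analysed, at 72.44 to 94.7 in FOXC2 cells and 675.3 to 813.4 in pBabe cells, and the 3 endothelial markers were not analysed here. The part of these markers in the values of the neighbourhood was not tested. In such bulk RNA, fewer cells of a kind and less RNA per cell cannot be told apart.

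Members of 3p21.31 were mostly lower in the cells with FOXC2, and most that passed as lower changed by less than 2-fold. Of the 52 measured members, 29 were lower in FOXC2 cells, 3 were higher and 20 did not pass. A gene passed at a limma p under 0.05 after Benjamini-Hochberg adjustment over all 33497 features. In the same comparison 26.3% of all features and 28.4% of the 12562 named genes passed, and 14.3% of named genes were lower and 14.1% higher. The median log2 fold change of the members, FOXC2 minus pBabe, was -0.39, against 0.03 over all named genes. The middle 50% of members lay between -0.63 and -0.17. Of the 29 lower members 26 were under 2-fold, and the folds ran from 1.22 for DHX30 to 2.49 for KLHDC8B. Their adjusted p ran from 1.72e-04 for KLHDC8B to 0.0406 for DHX30 (limma). All 3 FOXC2 arrays lay below all 3 pBabe arrays for 35 members, where this held for 23.5% of named genes, and above them for 3, where it held for 24.9%. In either direction 48.4% of named genes had groups that did not overlap. Including members that did not pass, 45 of 52 had a log2 fold change below 0, as did 46.9% of named genes. Without FOXC2 replicate 3 the count of lower members was 19, that of all passing members 21 and that of all passing features 5752, and 18 of the 29 passed whichever array was left out. The 29 all kept their sign with each array left out.

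**Figure D1:**
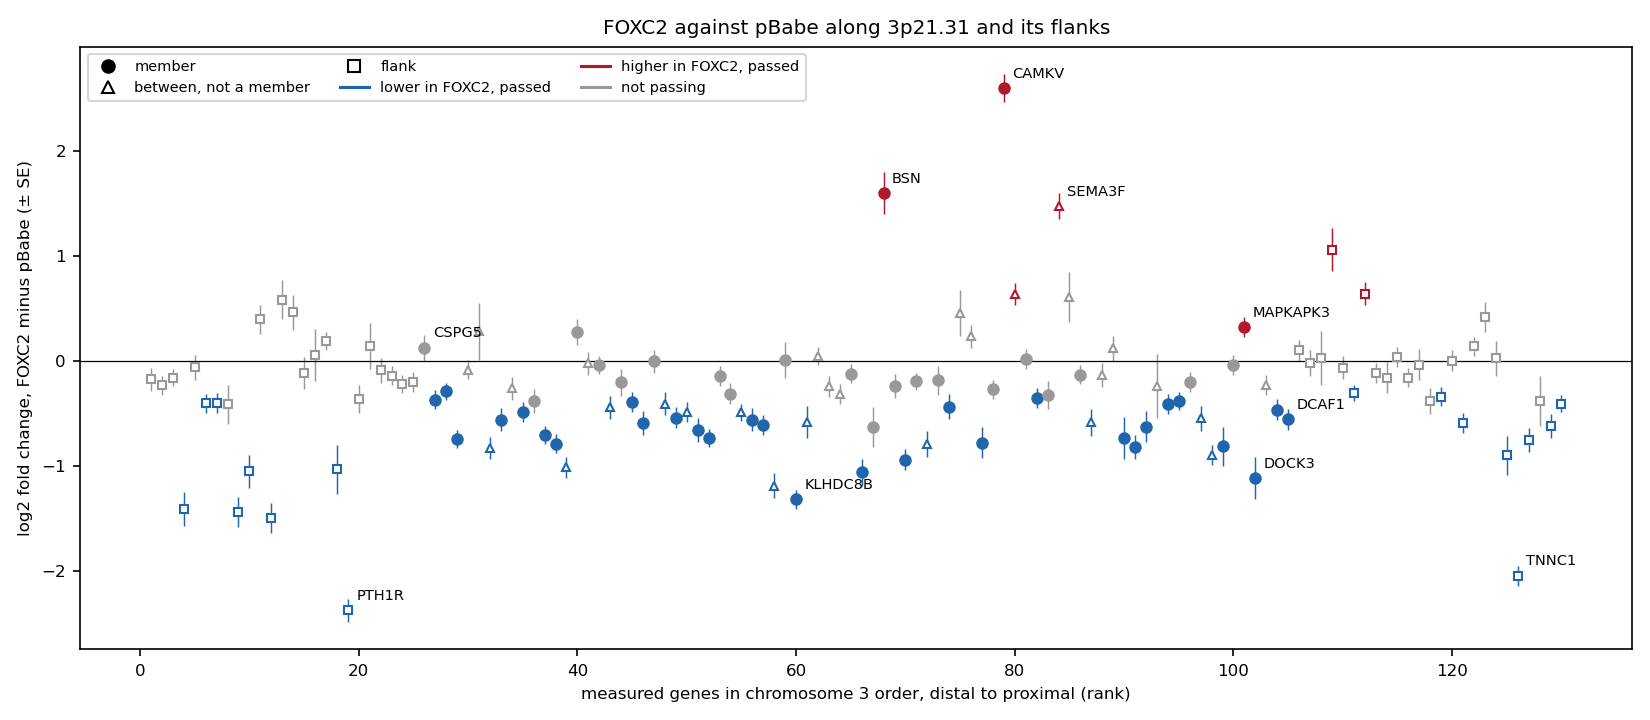
Log2 fold change (FOXC2 minus pBabe, ± SE) of measured genes in chromosome 3 order, from 25 genes distal to CSPG5 to 25 genes proximal to DCAF1. Filled circles are the 52 members, triangles the 28 other measured genes between them and squares the flanks; blue points passed as lower, red as higher and grey did not pass. Members form a band mostly between -1 and 0, with CAMKV (2.60) and BSN (1.60) far above it.

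The largest fall was that of KLHDC8B, a kelch-repeat protein found at the midbody of dividing cells. Its intensities were 890.2, 888.7 and 987.4 in FOXC2 cells and 2304, 2358 and 2226 in pBabe cells. Every FOXC2 array was thus far below the lowest pBabe array, and the log2 fold change was -1.32 ± 0.0877 (SE). DOCK3, a guanine nucleotide exchange factor for Rac known from neurons, gave 112.9, 168.2 and 120.6 against 291.2, 344.4 and 233.5. Its groups did not overlap, and its log2 fold change was -1.12 ± 0.20 (SE). AMT, the aminomethyltransferase of the glycine cleavage system, gave 330.5, 278.4 and 300.2 against 630.6, 721.9 and 551.9, without overlap. Its log2 fold change was -1.06 ± 0.127 (SE). These 3 were the members that fell at least 2-fold.

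MST1, macrophage-stimulating protein, is the secreted ligand of the receptor RON. Its intensities of 618.5, 530.3 and 634.8 in FOXC2 cells lay below the 1095, 1141 and 1173 of pBabe cells, a log2 fold change of -0.94 ± 0.101 (SE). The gene of that receptor, MST1R, lies in the same stretch but is no member, and was picked out after its value was seen. It was higher in FOXC2 cells, at 0.64 ± 0.107 (SE; limma adjusted p 0.00631). Ligand and receptor, although neighbours, thus had opposite signs.

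SHISA5, an endoplasmic reticulum protein induced by p53, gave 2262, 2252 and 2194 in FOXC2 cells and 3824, 4175 and 3589 in pBabe cells. MAP4, which binds and stabilises microtubules, gave by its brighter feature 3092, 2931 and 3214 against 4873, 5438 and 5153. DALRD3, which takes part in the methylation of arginine tRNA, gave 4406, 4254 and 4503 against 6868, 7522 and 7564. The groups were apart for all 3 genes, with log2 fold changes of -0.79 ± 0.0913, -0.74 ± 0.0893 and -0.74 ± 0.0860 (SE). HEMK1, a methyltransferase of mitochondrial release factors, was dimmer, with 270.6, 423.3 and 303.2 against 501.8, 612.9 and 612.9. UBA7, the activating enzyme for the ubiquitin-like protein ISG15, was dimmer still, with 108.6, 142.6 and 109.1 against 178.1, 216.8 and 220.3. Both were lower, at -0.81 ± 0.183 and -0.78 ± 0.147 (SE). Of the 6 fits that left out an array, HEMK1 passed in only 2 and UBA7 in 6. The lowest intensity in the whole table was 50.002 and detection calls were not used here, so the sizes of the changes of UBA7, DOCK3 and BSN are uncertain.

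The 3 members that rose stood apart from this pattern. CAMKV, a vesicle-associated pseudokinase known from neurons, had intensities of 3711, 3841 and 4276 in FOXC2 cells and 548.7, 726.2 and 683.4 in pBabe cells. That is 6.07-fold higher, a log2 fold change of 2.60 ± 0.130 (SE). BSN, or bassoon, a scaffold of the presynaptic active zone, gave 416.6, 385.0 and 520.0 against 149.7, 180.4 and 110.8. It was 3.03-fold higher, at 1.60 ± 0.201 (SE), again with every FOXC2 array above every pBabe array. MAPKAPK3, a kinase activated by p38, rose less, with 7813, 8705 and 7415 against 6277, 6388 and 6394. Its log2 fold change was 0.33 ± 0.0929 (SE; limma adjusted p 0.0427), and it did not pass in any of the fits that left out an array.

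**Figure D2:**
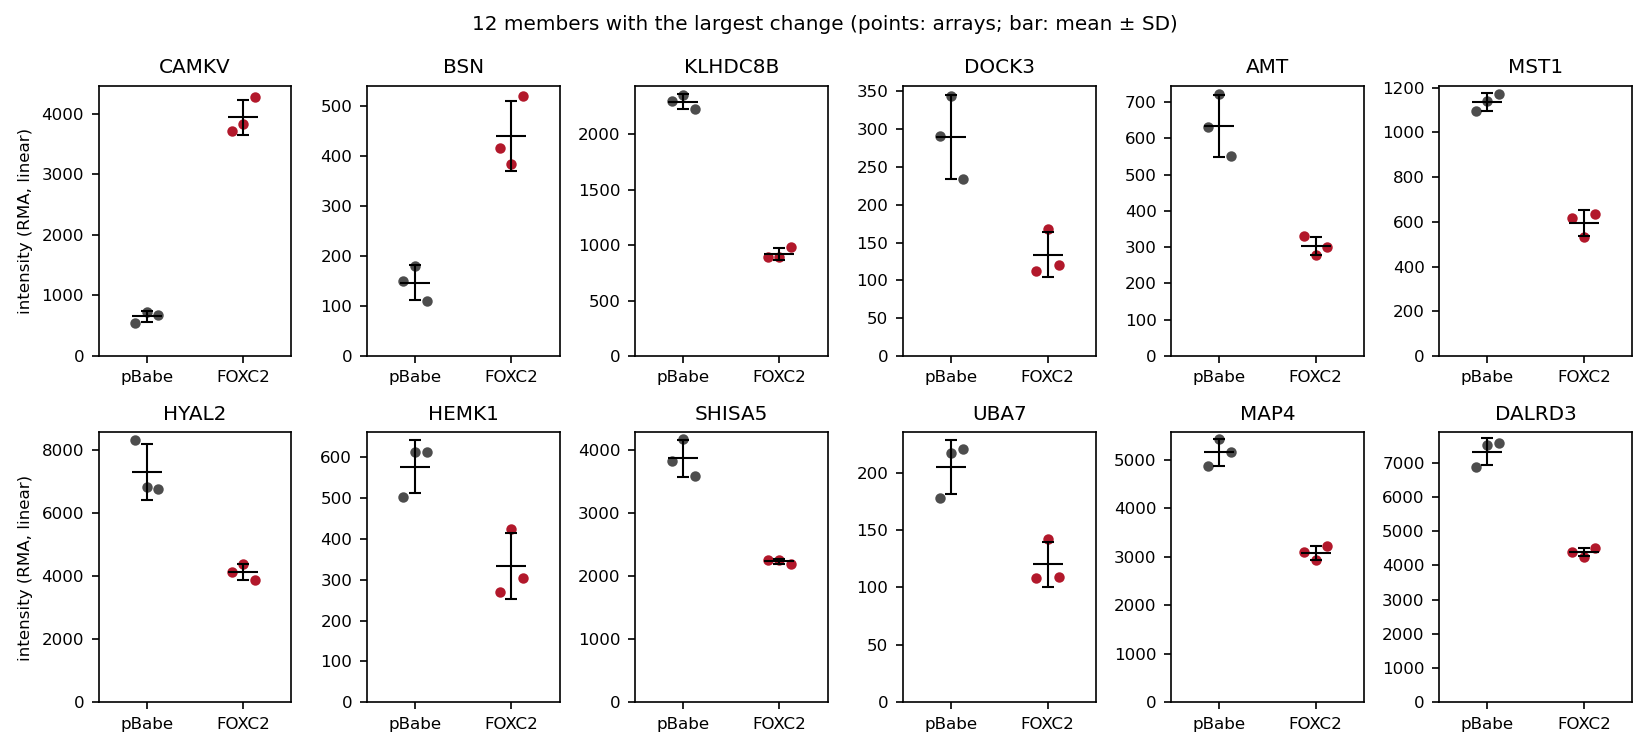
Intensity (RMA, linear scale) on each array of the 12 passing members with the largest absolute log2 fold change. Points are arrays, and bars with whiskers are the mean ± SD of the 3 arrays of a group. Only members whose groups did not overlap were taken, and CAMKV and BSN are the panels in which FOXC2 cells are higher.

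For contrast, the 250 bases before the start are shown for the member with the largest fall and for the 2 with the largest rises, with CpG in capitals (RefSeq, GRCh38.p14, each on the strand of its gene). KLHDC8B is at chr3:49171348-49171597 on the plus strand, CAMKV at chr3:49869907-49870156 on the minus strand and BSN at chr3:49554227-49554476 on the plus strand.
KLHDC8B: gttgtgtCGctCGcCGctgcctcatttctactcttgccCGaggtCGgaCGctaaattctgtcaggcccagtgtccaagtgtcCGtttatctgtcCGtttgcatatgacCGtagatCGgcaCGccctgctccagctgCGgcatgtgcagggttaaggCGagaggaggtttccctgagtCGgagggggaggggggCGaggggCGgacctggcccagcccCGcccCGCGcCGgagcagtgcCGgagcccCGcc
CAMKV: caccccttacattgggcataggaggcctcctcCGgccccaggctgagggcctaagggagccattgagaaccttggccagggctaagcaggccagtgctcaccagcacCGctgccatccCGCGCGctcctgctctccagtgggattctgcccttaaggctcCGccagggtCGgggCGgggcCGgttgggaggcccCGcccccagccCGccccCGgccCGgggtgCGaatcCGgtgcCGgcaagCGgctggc
BSN: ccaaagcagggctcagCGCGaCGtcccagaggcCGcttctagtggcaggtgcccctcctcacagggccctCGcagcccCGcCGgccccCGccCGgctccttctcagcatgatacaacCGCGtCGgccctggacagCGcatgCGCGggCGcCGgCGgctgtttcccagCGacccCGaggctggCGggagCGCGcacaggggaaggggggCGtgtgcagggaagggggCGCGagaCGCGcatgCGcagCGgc
These stretches hold 22, 17 and 30 CpG. In windows of 300 bases at annotated starts the values were 28, 24 and 40, against a median of 25 over named genes.

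Over all named genes 14.3% were lower and 14.1% higher. In the cluster studied for tumour suppressors, 5 of 6 genes were analysed, of which 4 were lower, 0 were higher and TMEM115 did not pass. That count of 4 was 1 without FOXC2 replicate 3 (HYAL2 alone), 3 when FOXC2 replicate 2 or pBabe replicate 1 was left out, and 2 in the other fits that left out an array. The median log2 fold change was -0.41. HYAL2, a hyaluronidase anchored at the cell surface, gave 4129, 4375 and 3869 in FOXC2 cells and 8329, 6839 and 6749 in pBabe cells. Its groups were well apart, at -0.82 ± 0.114 (SE) in log2 fold change. It passed whichever array was left out. RASSF1, a scaffold of the Hippo and microtubule pathways, gave 2351, 2733 and 2663 against 4880, 3638 and 3542. Its log2 fold change of -0.63 ± 0.146 (SE) no longer passed without FOXC2 replicate 1 or FOXC2 replicate 3 (adjusted p 0.0656 and 0.0572, limma). NPRL2, a subunit of the GATOR1 complex that restrains mTORC1, gave 2289, 2074 and 1908 against 2688, 2821 and 2783. CYB561D2, a transmembrane cytochrome of the b561 family, gave 1128, 1231 and 1234 against 1504, 1609 and 1565. Neither gene's groups overlapped, at -0.41 ± 0.0975 and -0.38 ± 0.0861 (SE), but of the 6 fits that left out an array NPRL2 passed in 1 and CYB561D2 in 2. TMEM115, a Golgi membrane protein, had 6050, 5960 and 6168 against 6332, 7407 and 7236, also without overlap, and its log2 fold change of -0.20 ± 0.0944 (SE) did not pass.

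Paralogues within the neighbourhood had the same sign in each set, though not always the same call. Most members share that sign, 45 of 52 being below 0 in log2 fold change, so it says nothing particular about paralogues. The hyaluronidase genes and the RBM genes are adjacent among measured genes, while other genes lie between IP6K2 and IP6K1. HYAL3, the other hyaluronidase analysed, gave 344.9, 249.2 and 427.8 in FOXC2 cells and 512.9, 615.2 and 532.9 in pBabe cells. Its log2 fold change was -0.73 ± 0.20 (SE; limma adjusted p 0.0369), and of the fits that left out an array it passed only in the one without FOXC2 replicate 3. The inositol hexakisphosphate kinase IP6K2 gave 4430, 4315 and 3759 against 5636, 6836 and 6325, and IP6K1 gave 1397, 1362 and 1109 against 1715, 1836 and 1649. Both were lower without overlap, at -0.59 ± 0.114 and -0.43 ± 0.117 (SE), and IP6K1 passed in 1 of the 6 fits that left out an array. The splicing regulator RBM6 gave 3545, 3228 and 3696 against 4423, 4238 and 4734 and was lower, at -0.36 ± 0.0954 (SE), although it passed in 0 of those 6 fits. For its neighbour RBM5 the values were 4943, 5577 and 4735 against 7391, 5463 and 6357. These groups overlap, and its log2 fold change of -0.33 ± 0.135 (SE) did not pass.

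By role, lower members were spread over all groups that the neighbourhood holds. The count of each group stands beside 14.3% of named genes lower and 14.1% higher. Of 8 genes of RNA, tRNA and translation, 6 were lower and 0 higher, with a median log2 fold change of -0.42. Without FOXC2 replicate 3 the count of 6 was 3. They include DALRD3, the tRNA methylation partner WDR6 (-0.65 ± 0.115, SE), glutaminyl-tRNA synthetase QARS1 (-0.56 ± 0.112, SE), the m6A writer subunit RBM15B (-0.47 ± 0.0996, SE) and the mitochondrial RNA helicase DHX30 (-0.29 ± 0.0810, SE). Of the 6 fits that left out an array, DHX30 passed in 0 and RBM15B in 5. TMA7, tied to the translation machinery, had groups that did not overlap and a value of -0.38 ± 0.116 (SE) that did not pass. Of 5 genes of the ubiquitin system 4 were lower: UBA7, the deubiquitinase USP19 (-0.61 ± 0.0930, SE), the CUL4 substrate receptor DCAF1 (-0.56 ± 0.104, SE) and the ligase ARIH2 (-0.54 ± 0.0997, SE). The ligase RNF123, at -0.19 ± 0.0810 (SE), did not pass. DCAF1, the last member in gene order, gave 1875, 1772 and 1549 in FOXC2 cells and 2675, 2421 and 2527 in pBabe cells.

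Of 3 analysed genes of genome maintenance and chromatin 2 were lower, namely ATRIP, the partner of the checkpoint kinase ATR (-0.70 ± 0.0898, SE), and SMARCC1, a core subunit of the BAF chromatin remodeller (-0.37 ± 0.0932, SE). SMARCC1 passed in 1 of the 6 fits with an array left out, so the count of 2 was 1 in the others, pBabe replicate 2 being the array whose absence kept it. The replication-linked ligase TRAIP, at -0.27 ± 0.0886 (SE), did not pass. Of 10 genes of metabolism and mitochondria 5 were lower and 0 higher, and 5 were lower without FOXC2 replicate 2 or pBabe replicate 1 but 3 when any other array was left out. AMT and HEMK1 were joined by NME6, of the nucleoside diphosphate kinase family (-0.56 ± 0.110, SE), the mitochondrial channel protein CCDC51 (-0.49 ± 0.0933, SE) and CYB561D2. The respiratory chain subunit UQCRC1 was at -0.03 ± 0.0867 (SE), the complex I assembly factor NDUFAF3 at -0.14 ± 0.0959 (SE) and IMPDH2, of guanine nucleotide synthesis, at -0.31 ± 0.100 (SE), and none of them passed.

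Of 12 signalling genes 6 were lower, 2 were higher and 4 did not pass. Without FOXC2 replicate 3 the 6 were 3 (DOCK3, IP6K2 and MST1), and CAMKV alone was higher whichever array was left out. The genes that did not pass were the protein kinase A subunit PRKAR2A (-0.00 ± 0.108, SE), the G protein subunit GNAI2 (-0.13 ± 0.0919, SE), the cytokine signalling inhibitor CISH (-0.04 ± 0.0945, SE) and the peptide hormone UCN2 (0.28 ± 0.126, SE). Of 8 analysed genes of cytoskeleton, membrane and adhesion 3 were lower and 1, BSN, was higher. NCKIPSD, which binds the adaptor NCK, was the third that was lower, at -0.39 ± 0.0961 (SE), and passed in 2 of the 6 fits with an array left out. CSPG5, a transmembrane proteoglycan and the first member in gene order, had 1078, 968.6 and 1059 in FOXC2 cells and 818.9, 1096 and 946.8 in pBabe cells. These groups overlap, at 0.13 ± 0.126 (SE). The planar polarity cadherin CELSR3 (-0.20 ± 0.126, SE) and the vesicle fusion factor MON1A (0.02 ± 0.0962, SE) did not pass either. Of the 4 other analysed genes 1 was lower, KLHDC8B.

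**Figure D3:**
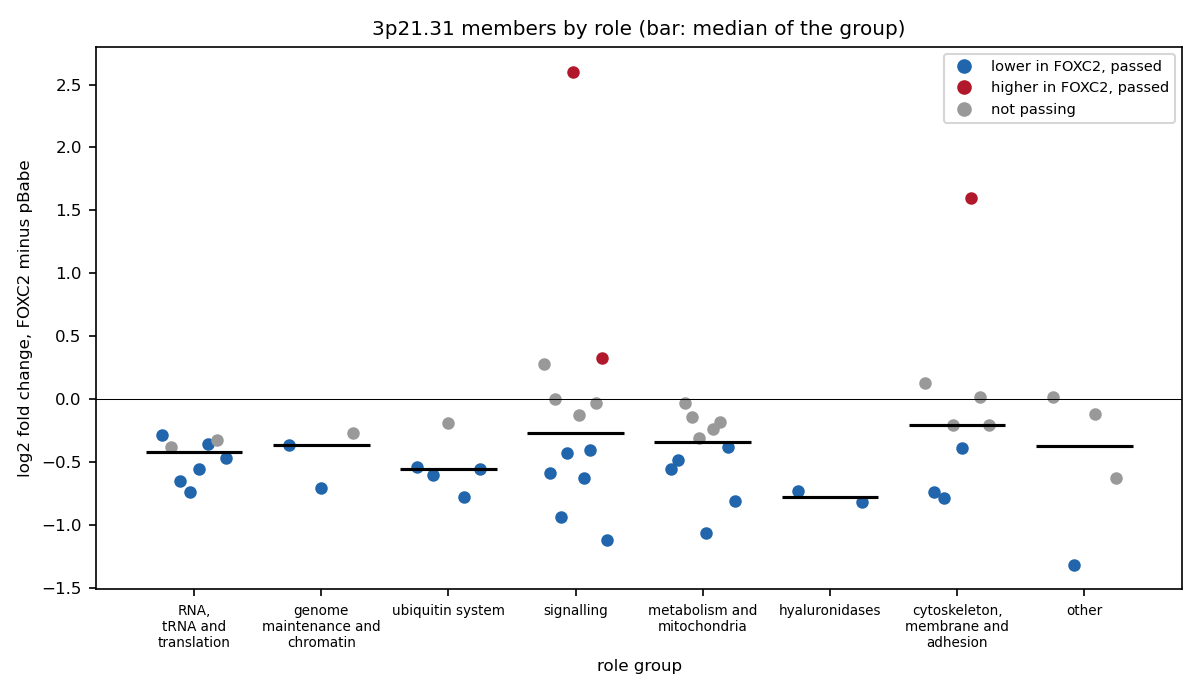
Log2 fold change (FOXC2 minus pBabe) of the 52 measured members by role group. Points are genes, coloured by whether they passed as lower (blue), higher (red) or not at all (grey), and bars are group medians. Every group median is below 0, from -0.20 for cytoskeleton, membrane and adhesion to -0.78 for the pair of hyaluronidases.

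The shift was seen on each array. Setting every member against its own mean over the 6 arrays, the median over members was -0.17, -0.20 and -0.21 on the FOXC2 arrays and 0.19, 0.19 and 0.20 on the pBabe arrays, in log2 units. On the FOXC2 arrays 45, 44 and 43 of the 52 members were below their own mean, and on the pBabe arrays 10, 7 and 10 were. Over all 12562 named genes the same medians lay between -0.03 and 0.02. Of those genes 6279, 6031 and 5945 were below their own mean on the FOXC2 arrays. On the pBabe arrays 6870, 6042 and 6370 were.

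**Figure D4:**
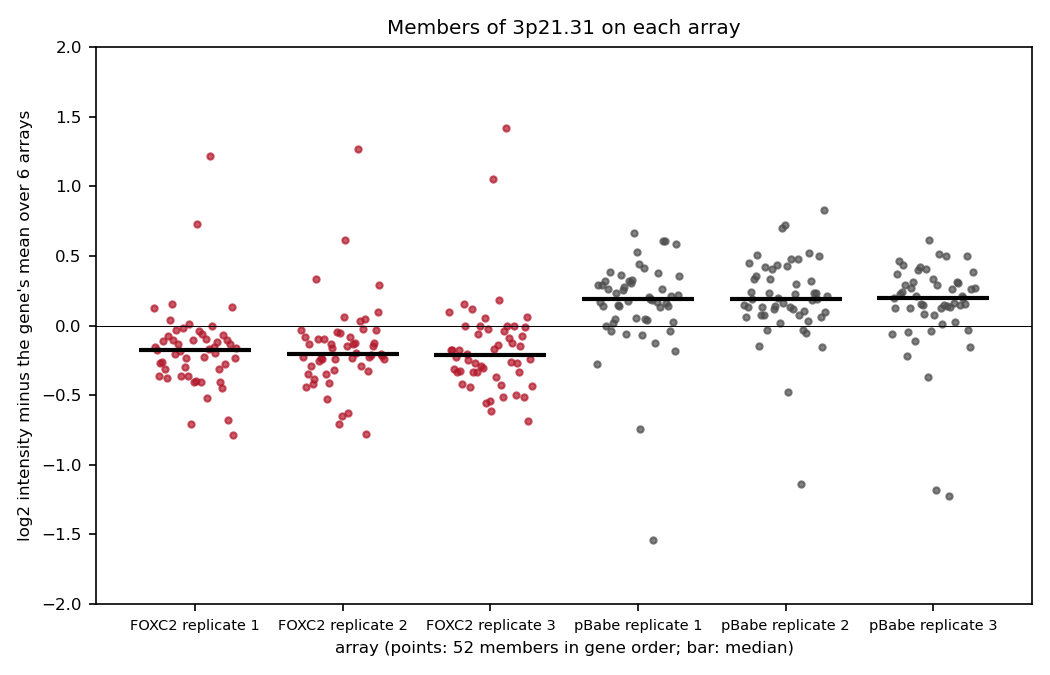
Log2 intensity of each member minus its own mean over the 6 arrays, for each array. Points are the 52 members in gene order and thick bars the medians; FOXC2 medians run from -0.21 to -0.17 and pBabe medians from 0.19 to 0.20.

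Neighbours that share a start region did not always share a call. NPRL2 and CYB561D2 were both lower, with 95% confidence intervals of the log2 fold change from -0.64 to -0.18 and from -0.59 to -0.18. For DALRD3 the interval ran from -0.94 to -0.53 while for NDUFAF3 it ran from -0.37 to 0.09. MST1 had an interval from -1.18 to -0.70 and RNF123 from -0.38 to 0.00. The intervals overlapped for CCDC51 (-0.71 to -0.26) and TMA7 (-0.66 to -0.11), and also for CISH (-0.26 to 0.19) and MAPKAPK3 (0.10 to 0.55). The difference within a pair was not tested. The annotated bodies of 3 of these pairs overlap, by 3952 bases for CCDC51 and TMA7, 1054 for DALRD3 and NDUFAF3 and 255 for CISH and MAPKAPK3, and features were read by their annotated symbol alone.

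Several members had a second reading. Of the 6 members with more than 1 feature, ATRIP (-0.70 and -0.50) and NCKIPSD (-0.39 and -0.41) were lower by both features. IP6K2 was lower by 2 of its 3 features, at -0.59 and -0.55, with the other at -0.38 (limma adjusted p 0.0619). All 4 features of NDUFAF3 did not pass, with values between -0.27 and -0.01, and neither did both of GMPPB (-0.18 and 0.04), an enzyme of GDP-mannose synthesis. MAP4 was the exception. Its second feature, which matches another transcript, was dim at mean intensities of 193 and 112 in FOXC2 and pBabe cells, and its value of 0.71 ± 0.271 (SE) did not pass. With both features averaged, MAP4 was at -0.02 (limma adjusted p 0.949), so its fall rests on the brighter feature.

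Between CSPG5 and DCAF1 lie 28 further measured genes that are not members. Of these 12 were lower, 2 were higher and 14 did not pass, with a median log2 fold change of -0.25. Members and others together made 80 genes, of which 41 were lower and 5 higher, beside 14.3% and 14.1% of named genes.

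Lower genes were also found on both sides. Of the 25 measured genes on the distal side 8 were lower and 0 higher (median -0.20), and of the 25 on the proximal side 8 were lower and 2 higher (median -0.12). On the distal side 6 of the 8 lower genes fell at least 2-fold, and on the proximal side 1 of 8. The same held for 3 of the 29 lower members and for 470 of the 1798 lower named genes. The nearest passing gene beyond CSPG5 was PTH1R, the parathyroid hormone receptor, at -2.38 ± 0.108 (SE; limma adjusted p 4.88e-05). The nearest beyond DCAF1 was IQCF1, which was higher at 1.06 ± 0.206 (SE; limma adjusted p 0.0115). Over the 613 other named genes of chromosome 3, 150 were lower (24.5%) and 62 higher (10.1%), with a median of -0.15. The median over all 665 named genes of chromosome 3, members included, was -0.16, the lowest of the 23 chromosomes with at least 100 named genes. In blocks of 25 measured genes along the chromosome, the block from CAMP to QRICH1, with 16 members, had the lowest median (-0.44), with 15 genes lower and 0 higher. The next lowest was the block from MON1A to DCAF1, also with 16 members (-0.36, 13 lower and 2 higher). A block with no members, from EIF4G1 to LPP, had a median of -0.33 with 12 lower and 0 higher.

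**Figure D5:**
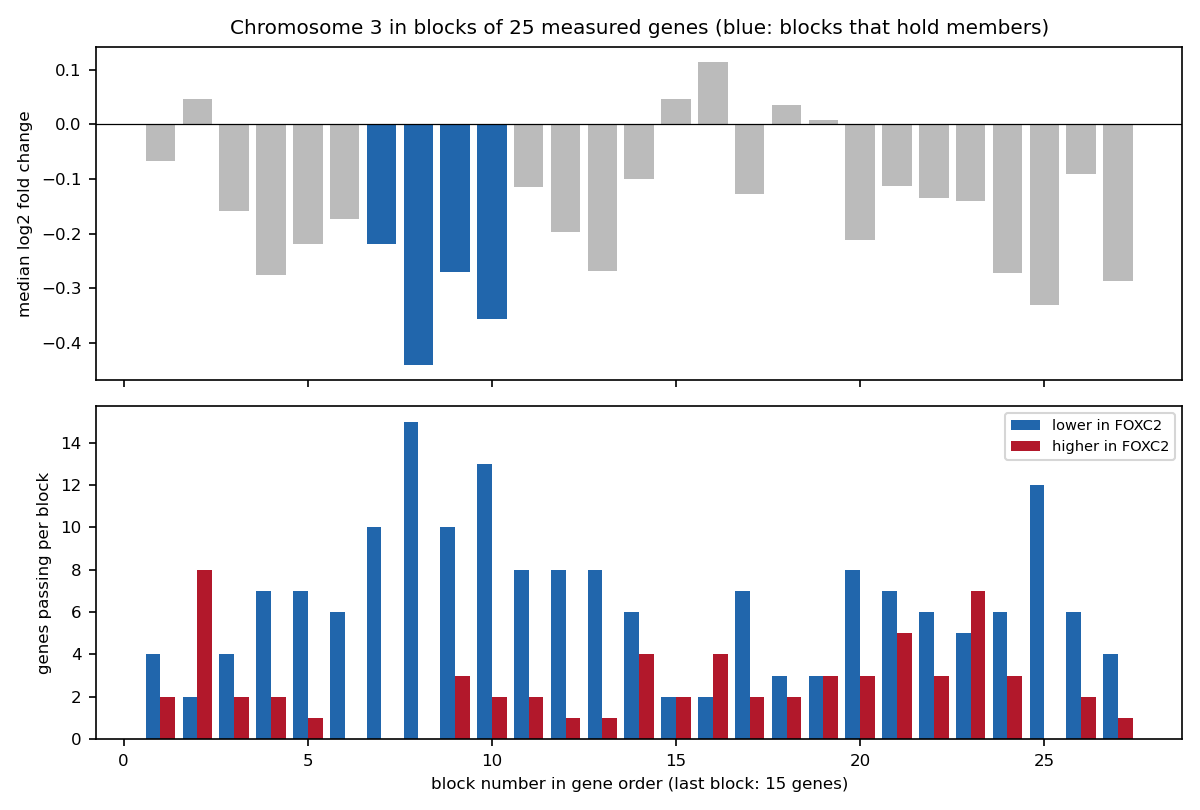
Chromosome 3 in blocks of 25 measured genes in gene order (the last block holds 15). The upper bars give the median log2 fold change of a block, blue where it holds members, and the lower bars the number of its genes that passed as lower (blue) or higher (red). Block 8, from CAMP to QRICH1, has the lowest median, and most other blocks are also below 0.

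Relatives of the members elsewhere in the genome were read for comparison. A list of 42 paralogues and complex partners held 35 measured genes outside chromosome 3, of which 2 were lower, 7 were higher and 26 did not pass, with a median log2 fold change of 0.02. The 9 passing relatives are 25.7% of those measured, near the 28.4% of named genes that passed. The count passing was 4 without FOXC2 replicate 2 and 5 without pBabe replicate 1. RASSF5, a relative of RASSF1, was lower at -1.25 ± 0.0856 (SE; limma adjusted p 1.93e-04). SOCS2, a relative of CISH, was higher at 1.24 ± 0.0947 (SE; limma adjusted p 2.86e-04). The paralogues of CELSR3 went both ways, with CELSR1 at 0.54 ± 0.102 (SE) and CELSR2 at -0.51 ± 0.101 (SE; limma adjusted p 0.0107 and 0.0118). Whether members and relatives differ was not tested.

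The members were brighter than most genes, at a median mean log2 intensity of 11.29 against 10.00 over named genes. With dim features left out, 28 of 41 remaining members were lower (68.3%), and 22.5% of 7040 remaining named genes were. This filter asks for brightness in either group, which favours genes that changed. The members' genes were shorter, with a median gene length of 11995 bases against 26028 over named genes in the RefSeq table. Start windows of 300 bases were found for 46 members, and they held a median of 28 CpG and 67.2% G or C, against 25 and 64.3% over 10277 named genes. Members that were lower had a median of 29 CpG and those that did not pass 27.

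Forkhead factors bind sites with the core TAAACA. This core, on either strand, was in the start windows of 4 of 46 members (8.70%), namely CSPG5, ATRIP, ARIH2 and QARS1, and of 10.1% of named genes with a window. The longer form GTAAACA, which contains the core, was in 0 of 46 and in 3.45% of named genes. The 4 matches are shown on the strand of their gene with the core in capitals, written TGTTTA where it reads on the other strand (RefSeq, GRCh38.p14). They lie at chr3:47580430-47580459 (minus), chr3:48446623-48446652 (plus), chr3:48918738-48918767 (plus) and chr3:49104874-49104903 (minus).
CSPG5: tacatggtccccTGTTTAgagaaggctatt
ATRIP: cccgtggacctcTAAACAccgggcggggcc
ARIH2: aggaggcggcgcTAAACAggccctctagcc
QARS1: tccgccctgtgtTGTTTAaaggggatagac
ATRIP, ARIH2 and QARS1 were lower and CSPG5 did not pass. The motif CCGGAAG, bound by ETS factors, was on either strand in 14 of 46 members (30.4%) and in 20.5% of named genes. A match is a description of these letters only.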

How the data were processed

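Per the labels, Cy3-labelled total RNA was hybridised to 1-colour NimbleGen arrays. The authors deposited linear intensities from RMA, per the submitters' processing notes, which name no version. RMA usually includes quantile normalization, under which a shift of all transcripts would not be seen. Values ran from 50.002 to 57044 over 33497 features. Detection calls and scan batches were not used here. Of the features 13730 had 1 gene symbol in the platform annotation, 19767 had none and 0 had several.

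Intensities were converted to log2 with no offset or filter, and FOXC2 and pBabe arrays were compared over all features in limma 3.58.1 (lmFit, eBayes; R 4.3.3) with Benjamini-Hochberg adjustment at 0.05. Gene order came from RefSeq GRCh38.p14. Members and lists were chosen with earlier results of these data known. Genes with values on every array were set by rule. They were the 12 passing, non-overlapping members with the largest change, passing members against the majority, and the first and last member. Paralogues, the tumour suppressor cluster and FOXC2 were added to them. The nearest passing gene on each side and 4 passing relatives were set by the same rule, but are given by log2 fold change alone. The fit was tested on simulated data. Precision is limited by 3 arrays per group.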

Additional observations from a re-analysis of the deposited data

How the results depend on the processing

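The neighbourhood was recomputed with dim features left out, quantile normalization, a block for the replicate number, median centring, a trended robust prior, an offset of 16 before the log, the mean over a gene's features, its dimmest feature, and leaving out each array. Outside the block and left-out arrays, 30 to 36 members passed, and the members' median stayed between -0.39 and -0.37. These counts have different bases. In the main fit 32 of 52 members passed (61.5%), beside 28.4% of named genes. The 30 were of the 41 members left without dim features (73.2%), beside 44.7% of named genes so filtered. The 36 were of 52 with the trended robust prior, where more features passed than the 8819 of the main fit. With the block, 22 members passed (20 lower, 2 higher) of 5960 features, and 5 relatives instead of 9. Deviations of same-numbered arrays correlated at -0.10, -0.12 and -0.06, so no pairing of the cultures by number was seen. Taken from group means of only 3 arrays, these correlations cannot show that no pairing exists. With each array left out, 5752 to 6768 features, 21 to 25 members, 19 to 23 lower and 2 higher members, 23 to 28 flanking or intervening genes and 4 to 7 relatives passed, with member medians from -0.43 to -0.37. Fewer arrays leave fewer degrees of freedom. Sign changes were limited to values that did not pass, apart from MAP4 by its dimmest feature (0.71). With the mean over both features MAP4 was -0.0177 and no longer passed (adjusted p 0.9486, limma). PRKAR2A was 0.0109 with median centring and 0.007 with quantile normalization, CCDC71 -0.0036 with quantile normalization, and GMPPB 0.043 by its dimmest feature. With arrays left out, PRKAR2A ran from -0.0641 to 0.0687, CCDC71 from -0.168 to 0.179, CISH from -0.0913 to 0.0235, UQCRC1 from -0.0646 to 0.0038 and MON1A from -0.0407 to 0.0884.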
